A study of Mus musculus with 12 samples.

Results

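The genes described here are 43 lysosomal genes, listed by symbol: 12 glycosidases, 5 sulfatases, 8 cathepsins, 3 other peptidases, 5 other acid hydrolases, 3 soluble cofactors and 7 membrane proteins. All 43 were found among the 23183 symbols measured, and all 43 were among the 13243 genes tested. They were measured by RNA sequencing of kidney cortex from male C57BL/6N mice aged 6 to 7 weeks at surgery. One ureter was tied (unilateral ureteral obstruction, UUO) and both kidneys were taken on day 7, so that the contralateral (CL) kidney of each animal served as its control. Acot12, which encodes an acetyl-CoA hydrolase, was intact in Acot12+/+ mice and carried an inherited mutation made with an RNA-guided endonuclease in every cell of Acot12-/- mice, not in the tubule alone. The 4 groups (Acot12+/+ CL, Acot12+/+ UUO, Acot12-/- CL and Acot12-/- UUO) held 3 libraries each, and no sham-operated group was analysed here, so each CL kidney came from an animal whose other kidney was obstructed.

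Lysosomal hydrolases are made in the endoplasmic reticulum, tagged with mannose 6-phosphate and carried to the lysosome, where a proton pump supplies the acid pH they need. Glycosidases and sulfatases remove sugars and sulfate groups from glycoproteins, glycolipids and glycosaminoglycans, while cathepsins cut proteins. In the kidney the proximal tubule depends on lysosomes to degrade the filtered protein it takes up, and macrophages depend on them to digest what they engulf, with cathepsins S, K, B, C, D and Z counted among the proteases that macrophages are rich in. That last grouping, called macrophage-rich cathepsins below, comes from general knowledge and not from these libraries. The name does not say which cells the transcripts came from here, and the 6 genes did not all follow the macrophage markers, as given below.

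Many lysosomal genes carry, near the start of transcription, an element read by TFEB and its relatives, and many genes of macrophages carry sites for the factor PU.1. The promoters of 36 of the 43 genes could be matched to RefSeq (GRCm38.p6, 250 bases before to 50 bases after each start). The 8 letters TCACGTGA, the centre of the TFEB-type element, stood in promoters of 4 of these 36 genes (11.1%), against 1.12% of all 27025 genes with a promoter. The shorter core CACGTG, which lies inside TCACGTGA, stood in 12 of 36 (33.3%), against 8.09% of all genes. GAGGAAGT, a PU.1-type site, stood on either strand in 4 of 36 (11.1%), against 3.69% of all genes. Windows of 30 bases are shown because the genes that hold the motifs ended on different sides of the comparisons below. Capitals mark TCACGTGA in the first 6 windows and GAGGAAGT, read on the opposite strand as ACTTCCTC, in the last 3.
Ctsa, chr2:164833749-164833778, plus strand: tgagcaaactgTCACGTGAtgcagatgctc
Ctsa, chr2:164833766-164833795, plus strand: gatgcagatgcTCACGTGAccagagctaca
Ctsd, chr7:142387908-142387937, minus strand: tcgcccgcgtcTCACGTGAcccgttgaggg
Mcoln1, chr8:3500462-3500491, plus strand: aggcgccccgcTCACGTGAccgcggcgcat
Gla, chrX:134601215-134601244, minus strand: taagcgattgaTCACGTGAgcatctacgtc
Gla, chrX:134601182-134601211, minus strand: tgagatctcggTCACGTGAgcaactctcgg
Ctss, chr3:95526773-95526802, plus strand: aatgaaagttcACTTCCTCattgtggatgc
Ctsc, chr7:88277923-88277952, plus strand: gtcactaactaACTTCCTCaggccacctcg
Gla, chrX:134601135-134601164, minus strand: tgagatgccgcACTTCCTCctcctttggaa
The remaining gene with GAGGAAGT was Gusb, and Gla held both motifs. A match describes the letters of a promoter and is not evidence that a factor was bound there.

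Levels are given as FPKM (fragments scaled to transcript length and to the size of the library), for replicates 1, 2 and 3 in that order. Changes are differences of log2(FPKM + 1) ± standard error from limma, and a gene was called at an adjusted p under 0.05 over the 13243 genes tested. The targeted gene was checked first. Acot12 FPKM was 73.8, 52.7 and 78.1 in CL and 9.98, 16.7 and 21.2 in UUO kidneys of Acot12+/+ mice, and 9.14, 9.01 and 6.80 in CL and 3.28, 1.80 and 3.86 in UUO kidneys of Acot12-/- mice. Every Acot12-/- library was below every Acot12+/+ library of the same kidney, with differences of -2.88 ± 0.28 (adjusted p = 0.000969) in CL and -2.07 ± 0.28 (adjusted p = 0.0459) in UUO kidneys. The value in UUO kidneys sat at the threshold, and its adjusted p was 0.00731 to 0.355 over the alternatives tried. The library size by which the values were divided was recovered from the step between low values. It was 12400000 to 16300000 fragments in CL and 18500000 to 22700000 fragments in UUO libraries. The sources used here do not say whether it also held scaling between libraries. It may thus differ from sequencing depth, and the part of depth in the changes was not tested. Acot12-/- CL replicate 2 stood apart from the rest on the second principal component, at -52.3 against 22.2 and 33.0 in the other libraries of its group. Its deviation went with the GC content of genes, as shown at the end of the results, and counts and members that turned on it are therefore also given without it.

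With obstruction of Acot12+/+ kidneys, 12 of the 43 genes were called higher (27.9%) and 13 lower (30.2%). Over all genes tested, 23.6% were called higher and 23.9% lower, so neither share stood far from the background. In whole cortex, fewer cells of a type and less RNA per cell cannot be told apart. In Acot12-/- kidneys 7 genes were called higher (16.3%) and 21 lower (48.8%), against 26.6% and 27.2% of all genes tested. The median of the 43 changes was -0.12 in the first genotype and -0.46 in the second, while the median over all genes was 0.01 and -0.01. Without Acot12-/- CL replicate 2, the counts in Acot12-/- mice were 8 higher and 24 lower, against 29.5% and 33.9% of all genes. Without Acot12+/+ UUO replicate 1, 7 were called higher and 9 lower in Acot12+/+ mice, against 18.7% and 18.5% of all genes in that fit. All directions are relative to the median gene: scaling every library to an equal FPKM total moved the median of all genes to 0.62 and 0.45, and then 26 members were called higher and 3 lower in Acot12+/+ mice (56.1% and 7.91% of all genes) and 15 higher and 10 lower in Acot12-/- mice (45.9% and 11.7% of all genes).

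Of the genes called lower, 13 were shared, which is 100% of those called in Acot12+/+ and 61.9% of those called in Acot12-/- mice. Of those called higher, 6 were shared (Arsa, Ctsc, Ctsk, Ctss, Hexa and Npc2), which is 50% of those called in Acot12+/+ and 85.7% of those called in Acot12-/- mice. No gene was called in opposite directions. With each library left out in turn, 16 of the 25 calls in Acot12+/+ mice and 24 of the 28 in Acot12-/- mice held every time. Ctsb, Gla, Glb1, Hexa, Lamp1, Lipa, Manba, Npc1 and Tpp1 lost the call without at least 1 library in Acot12+/+ mice, and Ctsa, Galns, Hgsnat and Ids did so in Acot12-/- mice. A call in 1 genotype alone does not show that the change differed between them, and the interaction that tests this, given below, called none of the 43 genes with all libraries in the fit. Asah1, Cd63, Ctsd, Gaa, Gusb, Naglu, Psap, Scarb2 and Sgsh were called in neither genotype. With the kidneys of a mouse paired, Cd63 (-0.46 ± 0.12, adjusted p = 0.0099) and Psap (-0.49 ± 0.16, adjusted p = 0.0319) were called lower in Acot12-/- mice, and Galns (-0.51 ± 0.15, adjusted p = 0.0208) in Acot12+/+ mice as well, with no call lost.

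**Figure D1:**
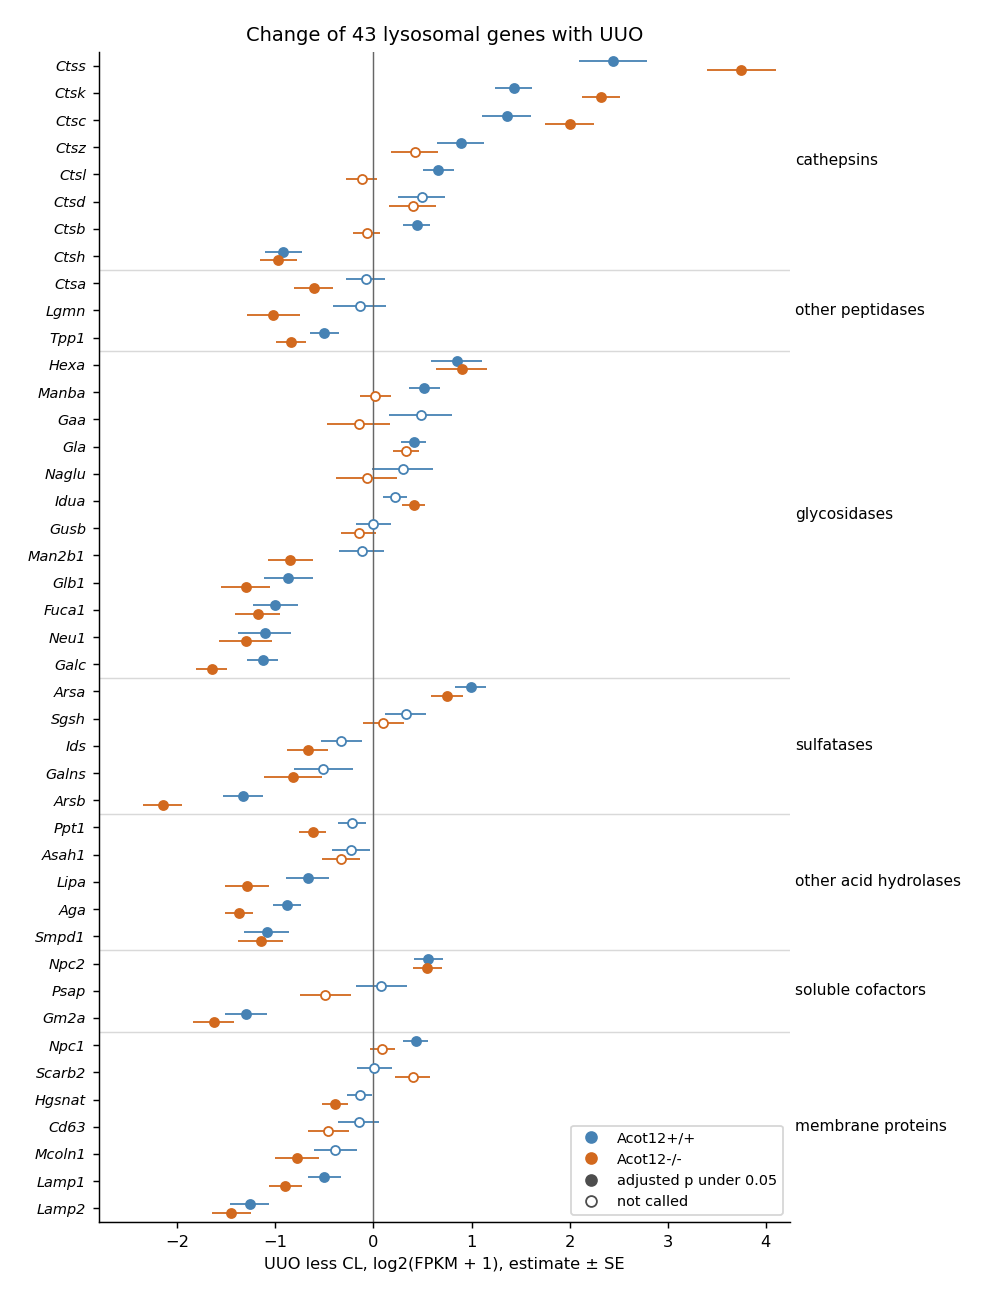
Change of each of the 43 genes with UUO (horizontal axis, UUO less CL on the log2(FPKM + 1) scale, estimate ± SE, 3 libraries per group), by role, in Acot12+/+ (blue) and Acot12-/- (orange) mice. Filled points passed an adjusted p under 0.05. Ctss, Ctsk and Ctsc lie farthest to the right in both genotypes, and Arsb lies farthest to the left.

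Cathepsins held the largest rises. Of 8 cathepsin genes, 6 rose (75.0%) and 1 fell (12.5%) in Acot12+/+ UUO kidneys (median change 0.78), against 23.6% and 23.9% of all genes. In Acot12-/- UUO kidneys 3 rose (37.5%) and 1 fell (12.5%, median 0.41), against 26.6% and 27.2% of all genes. The latter counts were the same without Acot12-/- CL replicate 2, and the median was 0.11. Ctss and Ctsk are neighbours on chromosome 3, with chr3:95499256-95509362 and chr3:95526786-95556403 separated by 17424 bases (GRCm38). Ctss encodes cathepsin S, a cysteine protease that trims the invariant chain of MHC class II in antigen-presenting cells. Its FPKM was 24.3, 20.6 and 21.1 in CL and 132, 109 and 130.3 in UUO kidneys of Acot12+/+ mice, and 5.57, 22.3 and 11.7 in CL and 124, 183 and 202 in UUO kidneys of Acot12-/- mice. The UUO libraries lay above all CL libraries in both genotypes, and the change was 2.44 ± 0.35 (adjusted p = 0.000189) in Acot12+/+ and 3.75 ± 0.35 (adjusted p = 6.79e-06) in Acot12-/- mice. Without Acot12-/- CL replicate 2 the change in Acot12-/- mice was 4.20 ± 0.26 (adjusted p = 1.62e-06).

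Ctsk encodes cathepsin K, the collagen-degrading protease known from osteoclasts. Its FPKM was 4.47, 4.98 and 4.41 in CL and 14.5, 10.5 and 18.6 in UUO kidneys of Acot12+/+ mice, and 1.48, 1.91 and 2.14 in CL and 10.8, 14.2 and 14.8 in UUO kidneys of Acot12-/- mice. Low in every CL library, it rose by 1.43 ± 0.19 (adjusted p = 0.000111) in Acot12+/+ and 2.32 ± 0.19 (adjusted p = 2.68e-06) in Acot12-/- mice. Ctsc at chr7:88278085-88310888 encodes cathepsin C (dipeptidyl peptidase 1), which activates the serine proteases of immune cell granules. Ctsc FPKM was 19.7, 16.9 and 13.4 in CL and 46.2, 38.8 and 46.8 in UUO kidneys of Acot12+/+ mice, and 7.36, 17.8 and 11.4 in CL and 45.8, 53.2 and 48.0 in UUO kidneys of Acot12-/- mice. UUO and CL libraries did not overlap in either genotype, and the change was 1.36 ± 0.25 (adjusted p = 0.000872) in Acot12+/+ and 2.00 ± 0.25 (adjusted p = 4.07e-05) in Acot12-/- mice. These 3 genes were the only cathepsins called higher in both genotypes, and their mean CL level was lower in Acot12-/- than in Acot12+/+ mice, with overlapping libraries for Ctss and Ctsc.

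The other cathepsins that rose in Acot12+/+ UUO kidneys were higher before the change than the first 3. Ctsz, for the carboxypeptidase cathepsin Z, had an FPKM of 95.7, 104 and 129 in CL and 208, 203 and 197 in UUO kidneys of Acot12+/+ mice, and 189, 102 and 207 in CL and 205, 204 and 229 in UUO kidneys of Acot12-/- mice. Its change was 0.89 ± 0.24 (adjusted p = 0.00861) in Acot12+/+ and 0.42 ± 0.24 (adjusted p = 0.155) in Acot12-/- mice. Acot12-/- CL replicate 2 was far below the other libraries of its group, and without it the change in Acot12-/- mice was 0.10 ± 0.14 (adjusted p = 0.548). Ctsl encodes cathepsin L, a broad endopeptidase that is abundant in tubule cells. Its FPKM was 284, 299 and 310.0 in CL and 424, 559.7 and 441 in UUO kidneys of Acot12+/+ mice, and 545, 503 and 607 in CL and 469.9, 520.4 and 534 in UUO kidneys of Acot12-/- mice. CL and UUO libraries were apart in Acot12+/+ mice and overlapped in Acot12-/- mice, with a change of 0.66 ± 0.16 (adjusted p = 0.00524) in Acot12+/+ and -0.12 ± 0.16 (adjusted p = 0.571) in Acot12-/- mice. Ctsb, which encodes cathepsin B, behaved alike, with an FPKM of 112, 123 and 128 in CL and 157, 157 and 178 in UUO kidneys of Acot12+/+ mice, and 199.6, 186 and 218 in CL and 189.7, 177 and 209 in UUO kidneys of Acot12-/- mice. Its change was 0.44 ± 0.14 (adjusted p = 0.024) in Acot12+/+ and -0.07 ± 0.14 (adjusted p = 0.708) in Acot12-/- mice. For Ctsb all 3 Acot12-/- CL libraries were above all 3 Acot12+/+ UUO libraries, and for Ctsl those ranges overlapped. Ctsb shares exon sequence with Fdft1 and Ctsz with Nelfcd, in each case on the opposite strand.

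Ctsd encodes the aspartic protease cathepsin D and was the third most abundant of the 43 genes in UUO kidneys of both genotypes. Its FPKM was 373, 387 and 354 in CL and 489.6, 472 and 618 in UUO kidneys of Acot12+/+ mice, and 449, 273 and 556 in CL and 503, 516 and 607 in UUO kidneys of Acot12-/- mice. Despite separate ranges in Acot12+/+ mice it was not called, with changes of 0.49 ± 0.24 (adjusted p = 0.104) in Acot12+/+ and 0.40 ± 0.24 (adjusted p = 0.171) in Acot12-/- mice, and 0.11 ± 0.17 (adjusted p = 0.581) in Acot12-/- mice without Acot12-/- CL replicate 2. Ctsd shares exon sequence with an annotated gene on the same strand (Gm49369), and Ctsl does so with Gm49230, so their reads could be split. Ctsh, for the aminopeptidase cathepsin H, was the single cathepsin that fell. Its FPKM was 177, 162 and 193 in CL and 90.5, 85.3 and 104 in UUO kidneys of Acot12+/+ mice, and 208, 159 and 259.7 in CL and 104, 93.9 and 115 in UUO kidneys of Acot12-/- mice. All UUO libraries lay below all CL libraries, with a change of -0.92 ± 0.19 (adjusted p = 0.00173) in Acot12+/+ and -0.97 ± 0.19 (adjusted p = 0.000905) in Acot12-/- mice.

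**Figure D2:**
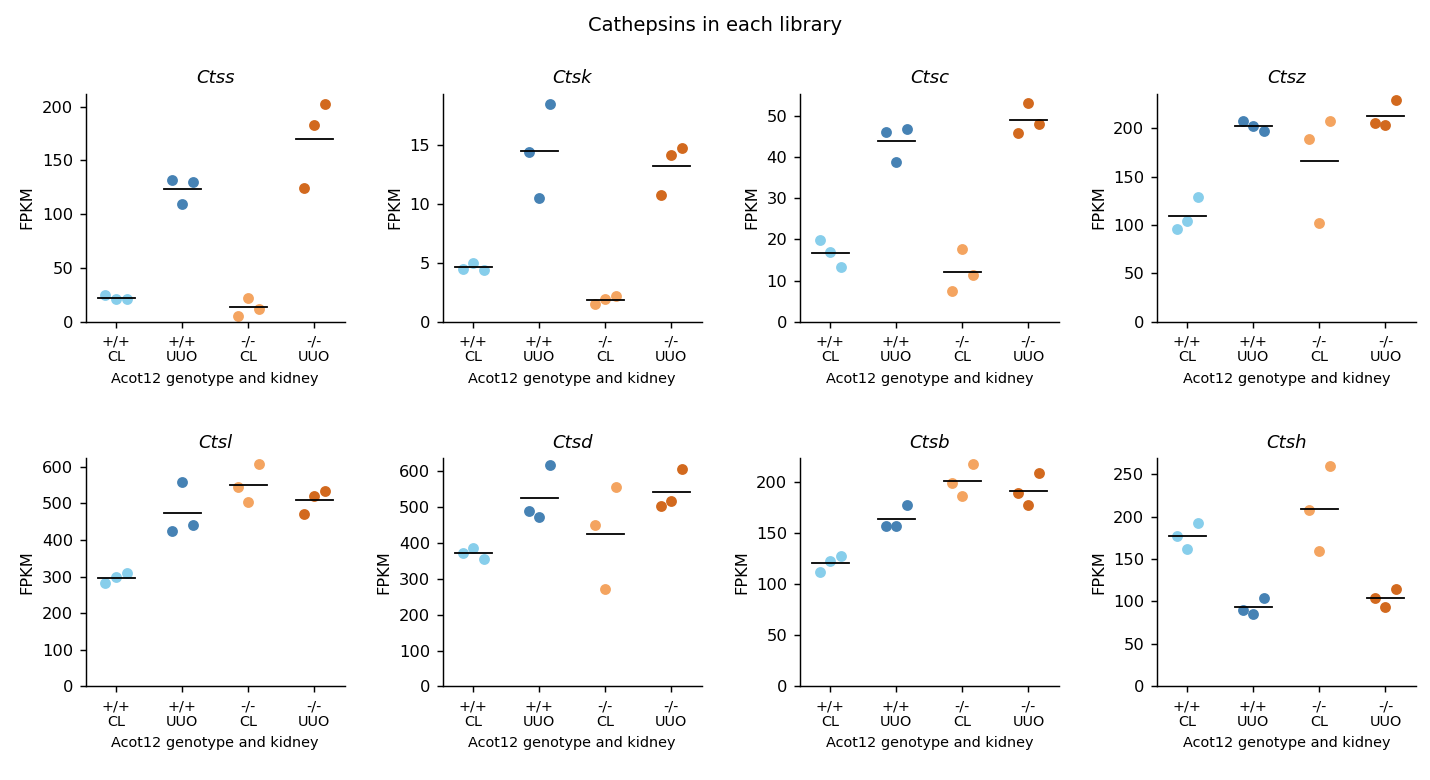
FPKM (vertical axis, linear, from 0) of the 8 cathepsin genes in each library of the 4 groups. Points are libraries in order of replicate and bars are means of 3. Ctss, Ctsk and Ctsc are high in all 6 UUO libraries, the CL and UUO points of Ctsl and Ctsb are apart in Acot12+/+ and overlap in Acot12-/- mice, and Ctsh is low in all 6 UUO libraries.

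None of the 3 other peptidases rose. In Acot12+/+ kidneys 1 of 3 fell (33.3%, against 23.9% of all genes). In Acot12-/- kidneys 3 of 3 fell (100%, against 27.2% of all genes). Lgmn encodes legumain, an asparaginyl endopeptidase that processes cathepsins and is abundant in the proximal tubule. Its FPKM was 288, 464 and 321 in CL and 284, 317 and 359 in UUO kidneys of Acot12+/+ mice, and 652, 587 and 1078 in CL and 346, 303 and 473 in UUO kidneys of Acot12-/- mice. The Acot12-/- CL libraries were above all others, and the change was -0.14 ± 0.27 (adjusted p = 0.694) in Acot12+/+ and -1.02 ± 0.27 (adjusted p = 0.0066) in Acot12-/- mice. Tpp1, for tripeptidyl peptidase 1, had an FPKM of 60.5, 61.1 and 61.5 in CL and 41.9, 40.9 and 45.8 in UUO kidneys of Acot12+/+ mice, and 80.4, 93.0 and 76.8 in CL and 54.8, 40.8 and 43.3 in UUO kidneys of Acot12-/- mice. It fell, at -0.50 ± 0.15 (adjusted p = 0.0145) in Acot12+/+ and -0.84 ± 0.15 (adjusted p = 0.000457) in Acot12-/- mice. Ctsa encodes cathepsin A, a serine carboxypeptidase that also shields beta-galactosidase and sialidase, and it is listed with the peptidases here. Ctsa FPKM was 64.6, 69.4 and 72.8 in CL and 61.7, 65.0 and 68.6 in UUO kidneys of Acot12+/+ mice, and 128, 77.3 and 129.8 in CL and 78.6, 58.5 and 78.0 in UUO kidneys of Acot12-/- mice. Its change was -0.08 ± 0.20 (adjusted p = 0.762) in Acot12+/+ and -0.61 ± 0.20 (adjusted p = 0.0239) in Acot12-/- mice. Ctsa shares exon sequence with Pltp and Neurl2 on the opposite strand. The library kit kept strand, but the setting used for counting is not given in the sources used here, so reads of such overlapping pairs may not be separable.

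The glycosidases held calls in both directions. Of 12, 3 rose (25.0%) and 4 fell (33.3%) in Acot12+/+ UUO kidneys (median change 0.11), against 23.6% and 23.9% of all genes. In Acot12-/- UUO kidneys 2 rose (16.7%) and 5 fell (41.7%, median -0.15), against 26.6% and 27.2% of all genes. In Acot12-/- mice 3 rose and 7 fell without Acot12-/- CL replicate 2, with a median of -0.60. Among those that fell were enzymes of sphingolipid and glycoprotein breakdown. Galc, for galactosylceramidase, had an FPKM of 34.5, 33.5 and 43.7 in CL and 15.1, 16.6 and 17.6 in UUO kidneys of Acot12+/+ mice, and 51.3, 52.5 and 53.9 in CL and 17.7, 13.0 and 18.1 in UUO kidneys of Acot12-/- mice. Its 6 UUO libraries were all below its 6 CL libraries, with a change of -1.13 ± 0.16 (adjusted p = 0.00015) in Acot12+/+ and -1.65 ± 0.16 (adjusted p = 7.64e-06) in Acot12-/- mice. Neu1 encodes the lysosomal sialidase, and its FPKM was 99.1, 95.8 and 113 in CL and 41.5, 42.7 and 58.3 in UUO kidneys of Acot12+/+ mice, and 149, 79.2 and 153 in CL and 56.9, 34.6 and 59.2 in UUO kidneys of Acot12-/- mice. It fell, at -1.11 ± 0.27 (adjusted p = 0.00558) in Acot12+/+ and -1.30 ± 0.27 (adjusted p = 0.00165) in Acot12-/- mice.

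Fuca1, for alpha-L-fucosidase, had an FPKM of 84.7, 85.5 and 101 in CL and 38.4, 44.7 and 51.3 in UUO kidneys of Acot12+/+ mice, and 128, 78.6 and 142 in CL and 51.9, 38.9 and 58.9 in UUO kidneys of Acot12-/- mice. UUO and CL ranges were separate and the change was -1.0 ± 0.23 (adjusted p = 0.00371) in Acot12+/+ and -1.18 ± 0.23 (adjusted p = 0.000993) in Acot12-/- mice. Glb1 encodes beta-galactosidase, known as the basis of the senescence-associated staining of cells. Its FPKM was 70.1, 64.3 and 84.6 in CL and 34.3, 37.3 and 47.2 in UUO kidneys of Acot12+/+ mice, and 133, 67.3 and 108 in CL and 49.3, 30.4 and 41.5 in UUO kidneys of Acot12-/- mice, and it shares exon sequence with Tmppe on the same strand. It fell, at -0.87 ± 0.25 (adjusted p = 0.0142) in Acot12+/+ and -1.30 ± 0.25 (adjusted p = 0.00101) in Acot12-/- mice. Man2b1 encodes the lysosomal alpha-mannosidase, with an FPKM of 24.3, 27.7 and 27.4 in CL and 20.9, 23.1 and 29.2 in UUO kidneys of Acot12+/+ mice, and 59.7, 31.0 and 51.8 in CL and 27.4, 20.8 and 27.5 in UUO kidneys of Acot12-/- mice. CL and UUO libraries overlapped in Acot12+/+ mice and not in Acot12-/- mice, with a change of -0.12 ± 0.23 (adjusted p = 0.674) in Acot12+/+ and -0.85 ± 0.23 (adjusted p = 0.00742) in Acot12-/- mice.

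Hexa, at chr9:59539540-59565109, encodes the alpha subunit of beta-hexosaminidase, which is deficient in Tay-Sachs disease, and it rose most among the glycosidases. Its FPKM was 27.4, 38.2 and 32.2 in CL and 64.6, 53.5 and 59.6 in UUO kidneys of Acot12+/+ mice, and 43.7, 22.9 and 53.9 in CL and 65.2, 71.0 and 79.8 in UUO kidneys of Acot12-/- mice. The change was 0.85 ± 0.26 (adjusted p = 0.0172) in Acot12+/+ and 0.90 ± 0.26 (adjusted p = 0.0106) in Acot12-/- mice, and in Acot12-/- mice it was 0.55 ± 0.16 (adjusted p = 0.0109) without Acot12-/- CL replicate 2. Manba encodes beta-mannosidase, with an FPKM of 22.7, 23.3 and 16.4 in CL and 33.4, 31.2 and 25.8 in UUO kidneys of Acot12+/+ mice, and 30.5, 33.5 and 29.6 in CL and 33.3, 32.0 and 29.7 in UUO kidneys of Acot12-/- mice. It rose in Acot12+/+ mice, and its change was 0.52 ± 0.16 (adjusted p = 0.0179) in Acot12+/+ and 0.02 ± 0.16 (adjusted p = 0.926) in Acot12-/- mice. Gla, for alpha-galactosidase A, is deficient in Fabry disease and changed by 0.41 ± 0.13 (adjusted p = 0.0246) in Acot12+/+ and 0.33 ± 0.13 (adjusted p = 0.0531) in Acot12-/- mice. It was called in Acot12-/- mice as well without Acot12-/- CL replicate 2, at 0.43 ± 0.12 (adjusted p = 0.0078). Idua, for alpha-L-iduronidase, changed by 0.22 ± 0.12 (adjusted p = 0.141) in Acot12+/+ and 0.41 ± 0.12 (adjusted p = 0.0104) in Acot12-/- mice from a mean of 2.67 FPKM in Acot12+/+ CL kidneys, the lowest of the 43 genes there, and it overlaps Slc26a1 and Dgkq on the opposite strand. Gaa (acid alpha-glucosidase), Naglu (alpha-N-acetylglucosaminidase) and Gusb (beta-glucuronidase) were not called in either genotype. Gaa and Naglu depended on 1 library: without Acot12-/- CL replicate 2 their changes in Acot12-/- mice were -0.66 ± 0.11 (adjusted p = 0.000486) and -0.55 ± 0.14 (adjusted p = 0.00629).

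Sulfatases were also called in both directions. Of 5, 1 rose (20.0%) and 1 fell (20.0%) in Acot12+/+ UUO kidneys, near the 23.6% and 23.9% of all genes. In Acot12-/- UUO kidneys 1 rose (20.0%) and 3 fell (60.0%), against 26.6% and 27.2% of all genes. The median in Acot12-/- mice was -0.67, and -0.40 with the same counts without Acot12-/- CL replicate 2. Arsb at chr13:93771630-93943016 encodes arylsulfatase B, which acts on dermatan and chondroitin sulfate. Its FPKM was 41.9, 37.3 and 48.9 in CL and 14.8, 15.3 and 19.2 in UUO kidneys of Acot12+/+ mice, and 96.3, 67.4 and 67.7 in CL and 19.3, 12.6 and 17.9 in UUO kidneys of Acot12-/- mice. This was the largest fall of the 43 genes in both genotypes, at -1.33 ± 0.20 (adjusted p = 0.000249) in Acot12+/+ and -2.15 ± 0.20 (adjusted p = 6.42e-06) in Acot12-/- mice, with every UUO library below every CL library. Arsa encodes arylsulfatase A, which acts on the myelin lipid sulfatide. Its FPKM was 3.23, 3.04 and 3.35 in CL and 8.49, 7.31 and 6.35 in UUO kidneys of Acot12+/+ mice, and 3.42, 2.98 and 4.88 in CL and 6.81, 7.63 and 6.27 in UUO kidneys of Acot12-/- mice, and UUO libraries were above all CL libraries, with exon sequence shared with C230037L18Rik. Arsa rose by 0.99 ± 0.16 (adjusted p = 0.000396) in Acot12+/+ and 0.75 ± 0.16 (adjusted p = 0.00188) in Acot12-/- mice. Ids and Galns, which act on heparan, dermatan and keratan sulfate, passed the test in Acot12-/- mice alone. Ids FPKM was 14.1, 13.2 and 14.1 in CL and 11.2, 10.5 and 10.6 in UUO kidneys of Acot12+/+ mice, and 16.5, 26.5 and 12.5 in CL and 12.0, 10.3 and 9.92 in UUO kidneys of Acot12-/- mice, and the change was -0.33 ± 0.21 (adjusted p = 0.215) in Acot12+/+ and -0.67 ± 0.21 (adjusted p = 0.0167) in Acot12-/- mice. Galns FPKM was 43.2, 40.8 and 51.5 in CL and 26.2, 27.5 and 42.5 in UUO kidneys of Acot12+/+ mice, and 72.4, 35.5 and 74.6 in CL and 35.1, 23.1 and 41.0 in UUO kidneys of Acot12-/- mice, with a change of -0.51 ± 0.30 (adjusted p = 0.182) in Acot12+/+ and -0.82 ± 0.30 (adjusted p = 0.0348) in Acot12-/- mice. Ids was highest and Galns lowest in Acot12-/- CL replicate 2, and without it the changes in Acot12-/- mice were -0.40 ± 0.12 (adjusted p = 0.0175) and -1.17 ± 0.25 (adjusted p = 0.0019). Sgsh, the heparan N-sulfatase, was not called, at 0.33 ± 0.21 (adjusted p = 0.223) in Acot12+/+ and 0.10 ± 0.21 (adjusted p = 0.711) in Acot12-/- mice.

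The remaining acid hydrolases were lower or not called. Of 5, 3 fell in Acot12+/+ (60.0%, against 23.9% of all genes) and 4 in Acot12-/- UUO kidneys (80.0%, against 27.2% of all genes), and none rose. Aga, for aspartylglucosaminidase, had an FPKM of 40.9, 41.1 and 44.6 in CL and 21.7, 21.2 and 24.5 in UUO kidneys of Acot12+/+ mice, and 49.5, 59.3 and 53.8 in CL and 23.7, 17.9 and 19.8 in UUO kidneys of Acot12-/- mice. The groups were separate, with a change of -0.88 ± 0.14 (adjusted p = 0.000367) in Acot12+/+ and -1.37 ± 0.14 (adjusted p = 1.27e-05) in Acot12-/- mice. Smpd1 encodes acid sphingomyelinase, and its FPKM was 44.1, 40.6 and 43.3 in CL and 18.2, 18.1 and 22.4 in UUO kidneys of Acot12+/+ mice, and 62.3, 31.9 and 61.6 in CL and 22.1, 18.1 and 26.0 in UUO kidneys of Acot12-/- mice. It fell, at -1.09 ± 0.23 (adjusted p = 0.00246) in Acot12+/+ and -1.15 ± 0.23 (adjusted p = 0.00134) in Acot12-/- mice. Lipa encodes lysosomal acid lipase, which frees cholesterol and fatty acids from lipoprotein lipids. Its FPKM was 42.1, 58.6 and 75.6 in CL and 34.7, 34.3 and 37.9 in UUO kidneys of Acot12+/+ mice, and 126, 109 and 89.3 in CL and 52.5, 40.0 and 38.1 in UUO kidneys of Acot12-/- mice. The change was -0.67 ± 0.22 (adjusted p = 0.0234) in Acot12+/+ and -1.29 ± 0.22 (adjusted p = 0.000329) in Acot12-/- mice. Ppt1, for palmitoyl-protein thioesterase 1, had an FPKM of 39.9, 35.6 and 42.6 in CL and 33.9, 32.9 and 34.0 in UUO kidneys of Acot12+/+ mice, and 51.9, 64.9 and 53.1 in CL and 40.3, 33.8 and 35.1 in UUO kidneys of Acot12-/- mice. It was called in Acot12-/- mice alone, at -0.22 ± 0.14 (adjusted p = 0.216) in Acot12+/+ and -0.62 ± 0.14 (adjusted p = 0.00269) in Acot12-/- mice, and overlaps Cap1 on the opposite strand. Asah1, the acid ceramidase, was not called, at -0.23 ± 0.19 (adjusted p = 0.349) in Acot12+/+ and -0.33 ± 0.19 (adjusted p = 0.165) in Acot12-/- mice.

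The soluble cofactors and the cholesterol carriers did not move as a block. Gm2a encodes the activator that presents the GM2 ganglioside to hexosaminidase A. Its FPKM was 103, 102 and 104 in CL and 35.1, 37.5 and 54.2 in UUO kidneys of Acot12+/+ mice, and 148, 133 and 167 in CL and 52.1, 34.7 and 58.4 in UUO kidneys of Acot12-/- mice. Its fall, at -1.30 ± 0.21 (adjusted p = 0.000423) in Acot12+/+ and -1.63 ± 0.21 (adjusted p = 5.70e-05) in Acot12-/- mice, ran opposite to the rise of Hexa, whose product it serves. Npc2 binds cholesterol in the lysosome lumen and hands it to Npc1. Npc2 rose by 0.56 ± 0.15 (adjusted p = 0.00795) in Acot12+/+ and 0.55 ± 0.15 (adjusted p = 0.00704) in Acot12-/- mice, and Npc1 changed by 0.43 ± 0.13 (adjusted p = 0.0154) in Acot12+/+ and 0.09 ± 0.13 (adjusted p = 0.592) in Acot12-/- mice. Psap, the precursor of the saposins, was not called, at 0.08 ± 0.26 (adjusted p = 0.812) in Acot12+/+ and -0.49 ± 0.26 (adjusted p = 0.126) in Acot12-/- mice, and in Acot12-/- mice it was -0.81 ± 0.19 (adjusted p = 0.00321) without Acot12-/- CL replicate 2.

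Of 7 membrane proteins, 1 rose (14.3%) and 2 fell (28.6%) in Acot12+/+ UUO kidneys, near the 23.6% and 23.9% of all genes. In Acot12-/- UUO kidneys 0 rose and 4 fell (57.1%), against 26.6% and 27.2% of all genes. Lamp2 and Lamp1 are the main glycoproteins of the lysosomal membrane. Lamp2 FPKM was 702, 614 and 711 in CL and 260.2, 269 and 316 in UUO kidneys of Acot12+/+ mice, and 683, 1159 and 812 in CL and 330.5, 274 and 349 in UUO kidneys of Acot12-/- mice. It fell, at -1.26 ± 0.20 (adjusted p = 0.00039) in Acot12+/+ and -1.45 ± 0.20 (adjusted p = 0.000102) in Acot12-/- mice. Lamp1 FPKM was 599.7, 596 and 659 in CL and 411, 440.0 and 455 in UUO kidneys of Acot12+/+ mice, and 916, 701 and 972 in CL and 497, 400.4 and 481 in UUO kidneys of Acot12-/- mice. UUO libraries were below CL libraries throughout, with a change of -0.50 ± 0.17 (adjusted p = 0.029) in Acot12+/+ and -0.90 ± 0.17 (adjusted p = 0.000845) in Acot12-/- mice, and Lamp1 overlaps Grtp1 on the opposite strand. Mcoln1 encodes the calcium channel TRPML1, and its FPKM was 18.5, 18.4 and 23.6 in CL and 15.0, 15.1 and 15.2 in UUO kidneys of Acot12+/+ mice, and 29.9, 16.6 and 33.5 in CL and 14.5, 13.1 and 15.7 in UUO kidneys of Acot12-/- mice. Its change was -0.39 ± 0.22 (adjusted p = 0.166) in Acot12+/+ and -0.78 ± 0.22 (adjusted p = 0.00942) in Acot12-/- mice. Hgsnat, which acetylates heparan sulfate for its breakdown, changed by -0.14 ± 0.13 (adjusted p = 0.381) in Acot12+/+ and -0.39 ± 0.13 (adjusted p = 0.0195) in Acot12-/- mice. Cd63, a tetraspanin and the most abundant of the 43 genes in all 4 groups, had changes of -0.15 ± 0.21 (adjusted p = 0.586) in Acot12+/+ and -0.46 ± 0.21 (adjusted p = 0.0837) in Acot12-/- mice. Scarb2, the receptor that carries glucocerebrosidase to the lysosome, was not called, at 0.01 ± 0.18 (adjusted p = 0.967) in Acot12+/+ and 0.40 ± 0.18 (adjusted p = 0.0881) in Acot12-/- mice.

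Set side by side, the macrophage-rich cathepsins and the glycosidases with the sulfatases differed in median change. In Acot12+/+ mice the 6 macrophage-rich cathepsins had a median change of 1.12, with 5 called higher (83.3%) and 0 lower. The 17 glycosidases and sulfatases had a median of 0.00, with 4 higher (23.5%) and 5 lower (29.4%), against 23.6% and 23.9% of all genes. Ctsh, the only one of the 8 cathepsins that fell, is not among the 6, and the list was chosen with earlier results known. In Acot12-/- mice the medians were 1.21, with 3 higher and 0 lower, and -0.15, with 3 higher and 8 lower. With Acot12-/- CL replicate 2 left out they were 1.20, again with 3 higher and 0 lower, and -0.55, with 4 higher and 10 lower. Both cathepsin medians of Acot12-/- mice fell in a gap, between Ctsz (0.42) and Ctsc (2.00) with all libraries. Without that library the gap lay between Ctsd (0.11) and Ctsc (2.29). Ctsb, Ctsd and Ctsz were called in neither fit. The median of the 8 cathepsins exceeded that of the 17 enzymes by 0.78 in Acot12+/+ and 0.56 in Acot12-/- mice (0.65 without that library), and this difference kept its sign in every alternative tried. It is given as a description and was not tested. The summed FPKM of the 6 macrophage-rich cathepsins was 629 to 656 in CL and 990.3 to 1189 in UUO kidneys of Acot12+/+ mice, and 603 to 1007 in CL and 1079 to 1311 in UUO kidneys of Acot12-/- mice. That of the 17 glycosidases and sulfatases was 515 to 603, 379 to 442, 544 to 881 and 364 to 464. UUO libraries were above CL libraries in the first sum and below them in the second, in both genotypes. The largest share of the first sum belonged to Ctsd, which was not called.

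The marker genes of kidney cell types moved strongly in the same libraries. Of 12 macrophage markers, 11 rose in Acot12+/+ and 12 in Acot12-/- UUO kidneys (medians 1.84 and 2.91), and their summed FPKM was 211 to 225 in CL and 635 to 742 in UUO kidneys of Acot12+/+ mice, and 59.3 to 145 in CL and 631 to 998 in UUO kidneys of Acot12-/- mice. Of 12 proximal tubule markers, 11 fell in Acot12+/+ and 12 in Acot12-/- UUO kidneys (medians -2.07 and -2.55), with sums of 7531 to 9425, 1384 to 2649, 10829 to 13433 and 1083 to 3456 FPKM in the same order. The proximal tubule markers were abundant in every CL library, as kidney cortex should have them, and none of the macrophage or proximal tubule markers was at 0 throughout a group. Csf1r, a macrophage receptor, was the macrophage marker with the least change, at 0.60 ± 0.24 (adjusted p = 0.0569) in Acot12+/+ and 0.61 ± 0.24 (adjusted p = 0.0469) in Acot12-/- mice. The part of these shifts in the changes of the lysosomal genes was not tested.

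The other marker lists stood beside them as follows. Injured tubule markers rose in 7 of 7 in both genotypes, with summed FPKM of 1001 to 2979 in CL and 15401 to 17153 in UUO kidneys of Acot12+/+ mice, and 1708 to 5005 in CL and 16819 to 18356 in UUO kidneys of Acot12-/- mice. Loop and distal tubule markers fell in 9 of 9 and 8 of 9 (sums of 2121 to 3489, 453 to 1062, 2039 to 2487 and 467 to 921 FPKM), and fibroblast markers rose in 6 of 8 and 8 of 8 (sums of 138 to 179, 342 to 502, 47.1 to 109.9 and 341 to 485 FPKM). Of the 6 of 8 lymphocyte markers that could be tested, 4 rose in Acot12+/+ and 5 in Acot12-/- UUO kidneys (sums of 12.2 to 17.6, 35.7 to 37.4, 3.59 to 5.59 and 19.2 to 31.3 FPKM). Of the 4 of 6 neutrophil markers that could be tested, 1 and 4 rose (sums of 17.1 to 69.4, 24.8 to 76.8, 2.58 to 25.2 and 45.2 to 169 FPKM), and Mpo was listed at 0 in all CL libraries. Of 6 endothelial markers, 1 rose and 2 fell in Acot12+/+ UUO kidneys and 5 rose in Acot12-/- UUO kidneys (sums of 128 to 204, 101 to 118, 43.1 to 65.9 and 115 to 145 FPKM).

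**Figure D3:**
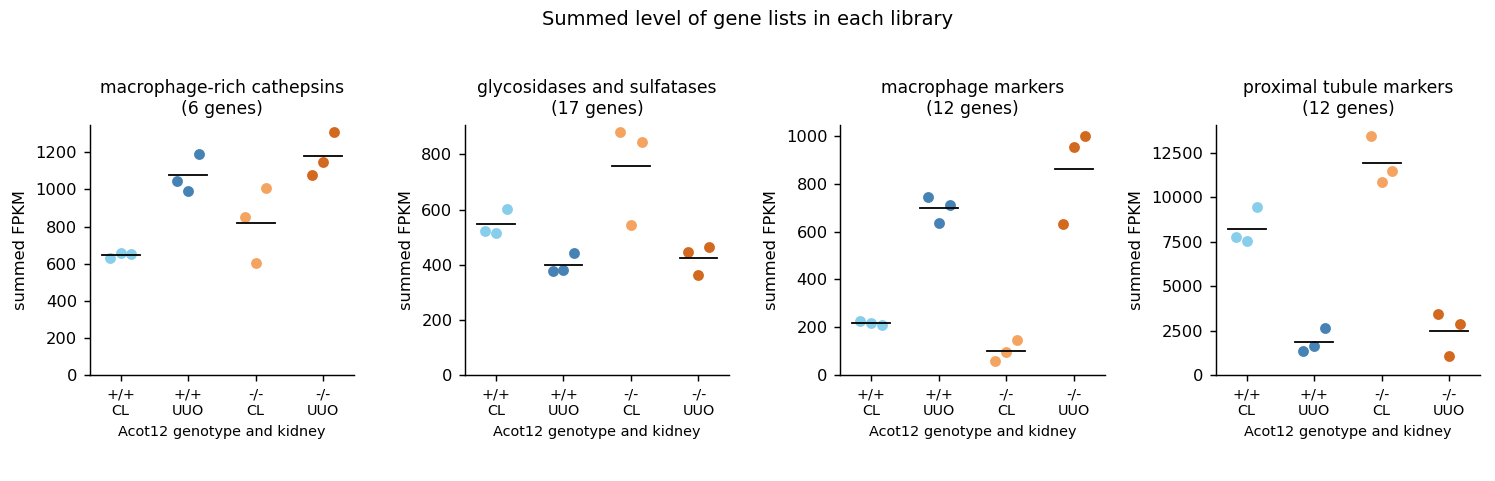
Summed FPKM (vertical axis, linear, from 0) in each library of the 6 macrophage-rich cathepsins, the 17 glycosidases and sulfatases, 12 macrophage markers and 12 proximal tubule markers. Points are libraries in order of replicate and bars are means of 3. In both genotypes the sums of cathepsins and macrophage markers are higher, and those of the glycosidases with sulfatases and of the proximal tubule markers lower, in UUO than in CL libraries.

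The rest of the lysosomal machinery, taken from lists of other genes of the pathway, held 97 genes that were tested. In Acot12+/+ UUO kidneys 19 of them were called higher (19.6%) and 34 lower (35.1%), and in Acot12-/- UUO kidneys 17 higher (17.5%) and 43 lower (44.3%), to be read against the shares of all genes given above. With equal totals 43 were higher and 7 lower in Acot12+/+ mice, where 56.1% and 7.91% of all genes were called. In Acot12-/- mice 28 were higher and 10 lower, where 45.9% and 11.7% of all genes were called. The balance thus turned for the list and over all genes alike. Most genes of the proton pump that acidifies the lysosome fell: of 16 subunit and accessory genes, 10 were lower in each genotype, 1 was higher in Acot12+/+ and 0 in Acot12-/- mice, with medians of -0.64 and -0.71 (14 lower and -0.79 in Acot12-/- mice without Acot12-/- CL replicate 2). Atp6v1a, the catalytic subunit, fell, at -1.79 ± 0.18 (adjusted p = 1.89e-05) in Acot12+/+ and -1.82 ± 0.18 (adjusted p = 8.46e-06) in Acot12-/- mice, as did Atp6v1e1, at -1.30 ± 0.16 (adjusted p = 7.33e-05) in Acot12+/+ and -1.35 ± 0.16 (adjusted p = 3.36e-05) in Acot12-/- mice. Atp6v0a1 changed by 0.74 ± 0.22 (adjusted p = 0.0154) in Acot12+/+ and 0.39 ± 0.22 (adjusted p = 0.154) in Acot12-/- mice. The list of cystatins and serpins went the other way, with 3 of 4 tested genes higher in Acot12+/+ and 4 of 4 in Acot12-/- mice and none lower. Its 2 serpins are not taken here as inhibitors of the 8 cathepsins above. Cst3, a cystatin, was not called in Acot12+/+ mice (-0.20 ± 0.22, adjusted p = 0.486) and rose in Acot12-/- mice (0.56 ± 0.22, adjusted p = 0.048). Serpina3n was near the floor, at 0.08, 0.87 and 0.15 FPKM in Acot12+/+ CL kidneys. Cstb, for cystatin B, rose by 1.42 ± 0.18 (adjusted p = 8.54e-05) in Acot12+/+ and 1.20 ± 0.18 (adjusted p = 0.000171) in Acot12-/- mice and Serpinb6a by 1.36 ± 0.17 (adjusted p = 8.33e-05) in Acot12+/+ and 1.45 ± 0.17 (adjusted p = 3.25e-05) in Acot12-/- mice.

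Other lysosomal proteases rose in 2 (25.0%) and fell in 2 (25.0%) of 8 in Acot12+/+ mice, near the 23.6% and 23.9% of all genes. They rose in 2 (25.0%) and fell in 5 (62.5%) of 8 in Acot12-/- mice, against 26.6% and 27.2% of all genes. Ctsw, a protease of killer lymphocytes, rose by 1.27 ± 0.23 (adjusted p = 0.000795) in Acot12+/+ and 1.60 ± 0.23 (adjusted p = 0.000109) in Acot12-/- mice. Ctse rose by 1.16 ± 0.39 (adjusted p = 0.0267) in Acot12+/+ and 1.70 ± 0.39 (adjusted p = 0.00281) in Acot12-/- mice. Both genes were near the floor in CL kidneys, with Ctsw at 0.13, 0 and 0.25 FPKM in Acot12-/- mice. For Ctse the Acot12+/+ libraries overlapped, at 0.75, 1.67 and 0.19 FPKM in CL and 4.97, 4.35 and 0.945 FPKM in UUO kidneys. Ctsf fell, at -1.18 ± 0.22 (adjusted p = 0.00116) in Acot12+/+ and -1.32 ± 0.22 (adjusted p = 0.000378) in Acot12-/- mice, and so did Prcp, a prolylcarboxypeptidase, at -0.56 ± 0.14 (adjusted p = 0.00582) in Acot12+/+ and -0.92 ± 0.14 (adjusted p = 0.00017) in Acot12-/- mice. Other lysosomal hydrolases rose in 3 (25.0%) and fell in 3 (25.0%) of 12 in Acot12+/+ mice, and rose in 2 (16.7%) and fell in 4 (33.3%) of 12 in Acot12-/- mice. In Acot12+/+ mice Man2b2 (1.12 ± 0.26, adjusted p = 0.00366) and Pla2g15 (0.94 ± 0.16, adjusted p = 0.000586) led upward. Ctbs (-1.54 ± 0.20, adjusted p = 0.000103) and Arsg (-1.30 ± 0.22, adjusted p = 0.000503) led downward there. In Acot12-/- mice Man2b2 was not called (0.35 ± 0.26, adjusted p = 0.266), and the other 3 of these genes were called in the same direction as in Acot12+/+ mice. Of 29 other membrane proteins tested, 7 rose in each genotype (24.1%), while 10 fell in Acot12+/+ (34.5%) and 12 in Acot12-/- mice (41.4%). Cd68, a lysosomal protein used as a macrophage marker, rose by 1.82 ± 0.26 (adjusted p = 0.000161) in Acot12+/+ and 3.03 ± 0.26 (adjusted p = 3.24e-06) in Acot12-/- mice and Litaf by 1.77 ± 0.23 (adjusted p = 0.000105) in Acot12+/+ and 2.03 ± 0.23 (adjusted p = 2.50e-05) in Acot12-/- mice. Lmbrd1, which takes part in vitamin B12 export, fell, at -1.03 ± 0.15 (adjusted p = 0.000215) in Acot12+/+ and -0.87 ± 0.15 (adjusted p = 0.000468) in Acot12-/- mice, as did Atraid, at -0.99 ± 0.19 (adjusted p = 0.00146) in Acot12+/+ and -0.90 ± 0.19 (adjusted p = 0.00206) in Acot12-/- mice.

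In the mannose 6-phosphate tagging and sorting list, 2 of 14 rose (14.3%) and 3 fell (21.4%) in Acot12+/+ mice, against 23.6% and 23.9% of all genes. In Acot12-/- mice 1 rose (7.14%) and 6 fell (42.9%), against 26.6% and 27.2% of all genes. Nagpa, which uncovers the tag, rose in Acot12+/+ mice (0.85 ± 0.29, adjusted p = 0.0282), as did Gga3 (0.52 ± 0.18, adjusted p = 0.0331), and Gnptg (-0.88 ± 0.21, adjusted p = 0.00523) and the receptor Igf2r (-0.60 ± 0.15, adjusted p = 0.0067) fell. In the list of the TFEB family and its regulators, 1 of 14 rose (7.14%) and 6 fell (42.9%) in each genotype. Tfe3 FPKM was 5.46, 6.45 and 6.90 in CL and 13.3, 14.3 and 14.2 in UUO kidneys of Acot12+/+ mice, and 7.71, 5.97 and 9.55 in CL and 13.4, 14.0 and 14.7 in UUO kidneys of Acot12-/- mice. It was the member of the family that rose, by 1.04 ± 0.16 (adjusted p = 0.000224) in Acot12+/+ and 0.80 ± 0.16 (adjusted p = 0.000993) in Acot12-/- mice. Tfeb changed by 0.06 ± 0.31 (adjusted p = 0.883) in Acot12+/+ and 0.31 ± 0.31 (adjusted p = 0.421) in Acot12-/- mice and Mitf by -0.35 ± 0.23 (adjusted p = 0.241) in Acot12+/+ and -0.13 ± 0.23 (adjusted p = 0.661) in Acot12-/- mice. Both Acot12-/- estimates leaned on Acot12-/- CL replicate 2. Tfeb FPKM was 12.7, 4.63 and 16.4 in CL and 13.3, 12.1 and 12.6 in UUO kidneys of Acot12-/- mice. Mitf FPKM was 3.10, 7.33 and 3.12 in CL and 3.64, 4.01 and 3.60 in UUO kidneys of these mice. Their changes without that library are not given, so the signs in Acot12-/- mice are not settled. Mtor fell, at -1.40 ± 0.19 (adjusted p = 0.00013) in Acot12+/+ and -1.75 ± 0.19 (adjusted p = 1.83e-05) in Acot12-/- mice. Lamtor5, a subunit of the complex that docks mTORC1 on lysosomes, fell as well, at -1.32 ± 0.20 (adjusted p = 0.000217) in Acot12+/+ and -1.20 ± 0.20 (adjusted p = 0.000289) in Acot12-/- mice.

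Of the genes with TCACGTGA in the promoter, Gla rose in Acot12+/+ mice (and, without Acot12-/- CL replicate 2, in Acot12-/- mice), Ctsd was not called, and Ctsa and Mcoln1 fell in Acot12-/- mice alone. Of those with GAGGAAGT, Ctss and Ctsc rose in both genotypes, Gla rose in Acot12+/+ mice and Gusb was not called. Ctsk, whose promoter held neither, rose as well.

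The genotypes were then compared within CL kidneys, which asks whether the level of these genes differed in the kidney that was not tied. With no sham-operated group, a difference in level cannot be told apart from a difference in the response to the obstructed kidney of the same animal. Of the 43 genes, 5 were called higher (11.6%) and 1 lower (2.33%) in Acot12-/- CL than in Acot12+/+ CL kidneys, against 1.12% and 3.36% of all genes tested, and the median difference was 0.35 against 0.01 over all genes. Lgmn was higher by 1.09 ± 0.27 (adjusted p = 0.0398), Lipa by 0.90 ± 0.22 (adjusted p = 0.0372), Ctsl by 0.88 ± 0.16 (adjusted p = 0.0119), Arsb by 0.83 ± 0.20 (adjusted p = 0.0381) and Ctsb by 0.73 ± 0.14 (adjusted p = 0.0148). Ctsk was lower, at -0.99 ± 0.19 (adjusted p = 0.0147). In each of these 6 genes all 3 Acot12-/- CL libraries lay on one side of all 3 Acot12+/+ CL libraries, as the values given above show. The genes were called from these same libraries, so this adds no support. Members that were not called, such as Ctsa, Man2b1, Galc and Lamp1, had separate ranges as well. A total of 38 of the 43 estimates were positive and 5 negative, against 6767 and 6473 of the 13243 genes. An unadjusted p under 0.05 was reached by 18 members, against 2289 of the 13243 genes. Manba (0.58 ± 0.16, adjusted p = 0.0656) and Ppt1 (0.51 ± 0.14, adjusted p = 0.0642) came next.

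The calls in CL kidneys depended on single libraries, and none of the 6 held with every library left out in turn. Without Acot12-/- CL replicate 2, 20 of the 43 genes were called higher (46.5%) and 3 lower (6.98%), against 11.6% and 10.5% of all genes tested, and the median difference was 0.53. The 20 included 8 of 12 glycosidases, among them Gaa at 1.11 ± 0.11 (adjusted p = 0.000832), Man2b1 at 1.05 ± 0.16 (adjusted p = 0.00377) and Naglu at 0.88 ± 0.14 (adjusted p = 0.00408), and also Ctsa at 0.89 ± 0.14 (adjusted p = 0.00372) and Ctsz at 0.86 ± 0.14 (adjusted p = 0.00437). The 3 lower genes were Ctss at -1.33 ± 0.26 (adjusted p = 0.00859), Ctsk at -1.01 ± 0.21 (adjusted p = 0.00982) and Ctsc at -0.78 ± 0.19 (adjusted p = 0.0179). The cathepsins were thus called in both directions, with Ctsb, Ctsl and Ctsz higher. Without Acot12+/+ CL replicate 1, no member was called in either direction, against 0.212% of all genes called higher and 1.23% lower. Without Acot12+/+ CL replicate 2 there were 2 higher and 0 lower, against 0.363% and 1.68%. Without Acot12-/- CL replicate 1 there were 1 higher and 0 lower, against 0.272% and 1.14%. Without Acot12+/+ CL replicate 3 there were 3 higher and 1 lower, against 0.424% and 1.51%. The UUO libraries enter this comparison through the shared estimate of spread: without Acot12+/+ UUO replicate 1 or 2 there were 2 higher (0.568% and 0.584% of all genes), and without Acot12+/+ UUO replicate 3 or Acot12-/- UUO replicate 3 there were 3 (0.758% and 0.773%). A fit with only the CL libraries ended all 6 calls, and it called 0% of all genes higher and 0.00755% lower.

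Marker sums differed between the same CL libraries. The macrophage sum was 211 to 225 FPKM in Acot12+/+ CL and 59.3 to 145 FPKM in Acot12-/- CL kidneys, with 3 of 12 markers called lower and 0 higher, and the proximal tubule sum was higher in every Acot12-/- CL library (10829 to 13433 against 7531 to 9425 FPKM), with 0 of 12 markers called in either direction. Endothelial markers were called lower in 5 of 6, lymphocyte markers in 3 of 6 and fibroblast markers in 2 of 8. Once Acot12-/- CL replicate 2 was left out, 7 of 12 macrophage markers, 6 of 6 endothelial, 3 of 6 lymphocyte and 7 of 8 fibroblast markers were called lower, and 1 of 12 proximal tubule markers, Slc5a2, was called higher. The part of these differences in those of the lysosomal genes was not tested.

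**Figure D4:**
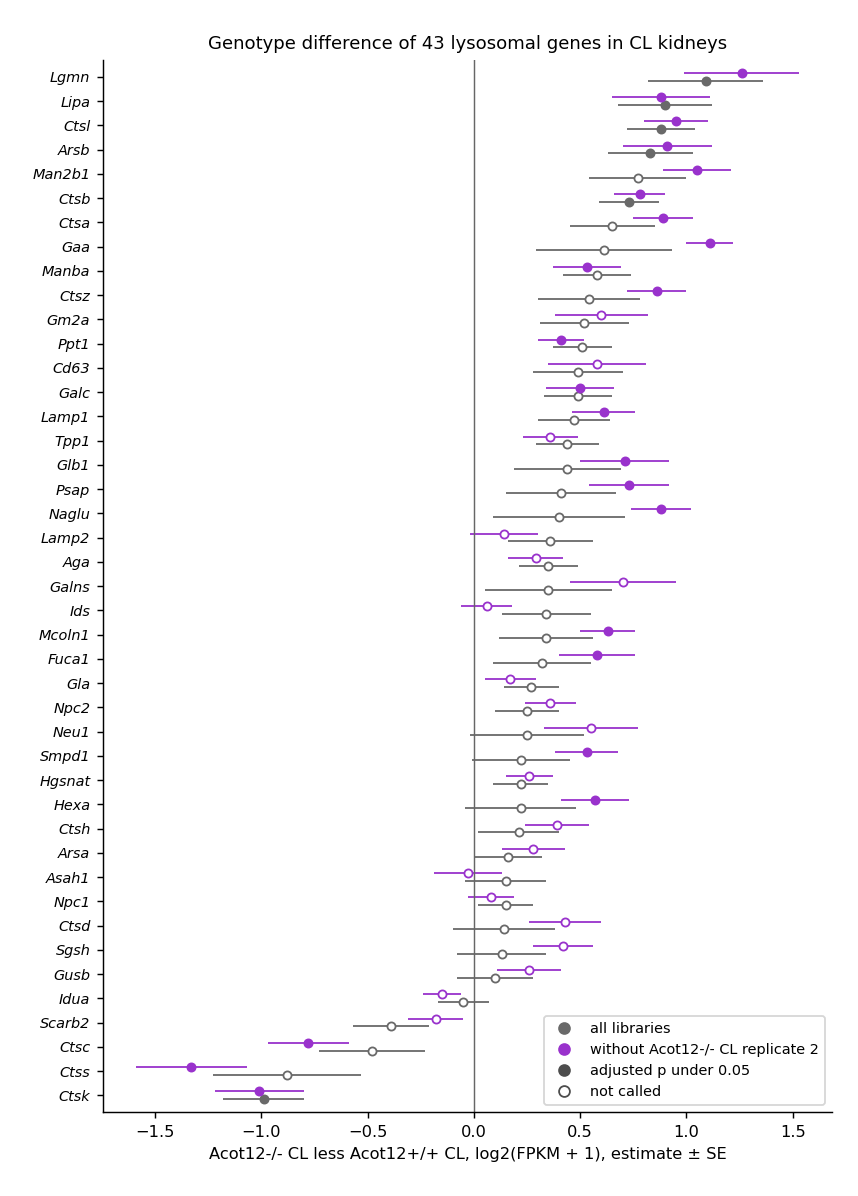
Difference of each of the 43 genes between Acot12-/- and Acot12+/+ CL kidneys (horizontal axis, log2(FPKM + 1), estimate ± SE), with all libraries (grey) and without Acot12-/- CL replicate 2 (purple). Filled points passed an adjusted p under 0.05. With all libraries 38 of the 43 estimates lie above 0, against 6767 of the 13243 genes tested. Ctsc, Ctss and Ctsk lie at the negative end in both fits.

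In UUO kidneys none of the 43 genes was called between the genotypes. By limma 0% of all genes tested were called higher there and 0.0151% lower (2 genes, of which Acot12 was one). At an unadjusted p under 0.05 there were 0 of 43 members as well, against 312 of the 13243 genes. Estimates ran from -0.19 for Npc1 to 0.43 for Ctss, with standard errors of 0.12 to 0.35, and the smallest unadjusted p was 0.128, for Npc2 (0.24 ± 0.15). Lgmn, which differed most in CL kidneys, differed by 0.21 ± 0.27 (adjusted p = 1) in UUO kidneys. The range of 2 standard errors on each side of that difference ran from -0.33 to 0.74. Over the 43 genes such ranges reached from as low as -0.67 to as high as 1.13, so differences of that size lie within the error of 3 libraries per group.

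The interaction asks whether the change with UUO differed between the genotypes, and 0 members were called, against 0.106% of all genes called higher and 0% called lower. At an unadjusted p under 0.05 there were 10 members, against 1389 of the 13243 genes. Of the 43 estimates 37 were negative, meaning a lower change in Acot12-/- mice, against 6813 of the 13243 genes. Each estimate is the genotype difference in UUO less that in CL kidneys, so this comparison shares the CL libraries with the one above. The lowest unadjusted p values were those of Ctsl (-0.78 ± 0.23, adjusted p = 0.183), Ctsk (0.89 ± 0.27, adjusted p = 0.205), Arsb (-0.82 ± 0.28, adjusted p = 0.278) and Ctss (1.31 ± 0.50, adjusted p = 0.351). Next were Ctsb (-0.50 ± 0.20, adjusted p = 0.381), Aga (-0.48 ± 0.20, adjusted p = 0.414), Lgmn (-0.88 ± 0.38, adjusted p = 0.442) and Galc (-0.52 ± 0.22, adjusted p = 0.444).

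This result too rested on 1 library. Without Acot12-/- CL replicate 2 the interaction called 8 members, against 3.88% of all genes called higher and 2.92% called lower. Ctss was called higher, at 1.76 ± 0.36 (adjusted p = 0.0249). Gaa at -1.14 ± 0.15 (adjusted p = 0.00888), Man2b1 at -1.0 ± 0.22 (adjusted p = 0.0306), Naglu at -0.84 ± 0.19 (adjusted p = 0.0325), Ctsl at -0.84 ± 0.21 (adjusted p = 0.0404), Ctsz at -0.79 ± 0.19 (adjusted p = 0.0379), Ctsa at -0.77 ± 0.19 (adjusted p = 0.0384) and Mcoln1 at -0.70 ± 0.17 (adjusted p = 0.0393) were called lower. With the kidneys of each mouse paired, no member was called and the smallest adjusted p was 0.11, for Arsb.

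Acot12-/- CL replicate 2 differed from the other libraries of its group in a way that followed base composition. It was the lowest of the 3 libraries for 28 of the 43 genes and the highest for 12, against 43.5% and 41.3% of all genes tested. Over the 43 genes, its deviation from the mean of replicates 1 and 3 correlated with the GC content of the exons at a Pearson r of -0.85, against -0.77 over 12767 genes tested, as a description across genes of 1 library. Gaa (59.5% GC) had an FPKM of 10.2 in it against 31.1 and 31.1 in the other libraries, and Naglu (59.8%) had 10.97 against 31.9 and 30.8. At the other end, Lamp2 (38.7%) had 1159 against 683 and 812, and Ids (41.4%) had 26.5 against 16.5 and 12.5. In Acot12+/+ libraries the same correlation, taken against the other libraries of the group, lay between -0.39 and 0.35. The part of base composition in the comparisons was not tested.

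**Figure D5:**
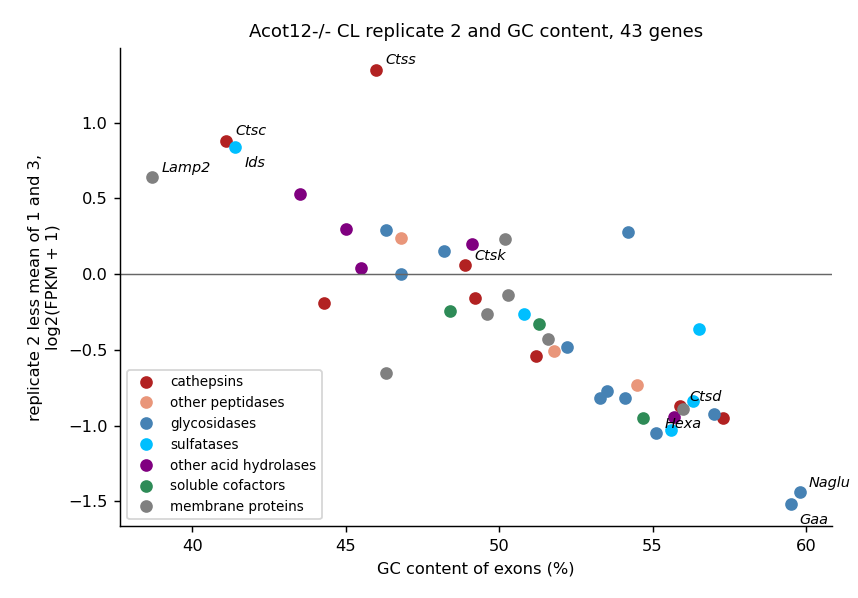
Deviation of Acot12-/- CL replicate 2 from the mean of replicates 1 and 3 (vertical axis, log2(FPKM + 1)) against the GC content of the exons (horizontal axis, percent) for the 43 genes, coloured by role. Gaa and Naglu, at 59.5% and 59.8% GC, lie below 0, and Lamp2 and Ids, at 38.7% and 41.4%, lie above it, while Idua lies above 0 at 54.2% and Scarb2 below it at 46.3%.

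Finally, the genes most like Ctss, Ctsk and Lgmn over the 12 libraries were listed among the 43, by Pearson r of log2(FPKM + 1). The libraries fall into UUO and CL groups, so these values describe shared differences between groups. Ctss was closest to Ctsc (0.99), Ctsk (0.95), Idua (0.93), Arsa (0.84) and Npc2 (0.77), and lay farthest from Arsb (-0.96). Ctsk was closest to Ctss (0.95), Ctsc (0.94), Arsa (0.82), Idua (0.81) and Hexa (0.72). Lgmn was closest to Cd63 (0.94), Ctsa (0.88), Man2b1 (0.86), Hgsnat (0.81) and Lamp1 (0.81), and farthest from Ctsk (-0.67).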

How the data were processed

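The deposited tables hold 1 value per gene symbol and library. The unit is not named in them and was derived from the values, since the lowest values climb in equal steps whose size falls with transcript length. They are FPKM, which the authors' service provider obtained by trimming, mapping and normalizing the reads. Per the labels the reads were mapped to mm10, and the processing notes name edgeR. The aligner, annotation, counting settings and the version of edgeR are not given in the sources used here. Libraries were made from total RNA with a strand-keeping kit. The library size used as divisor, from those steps, was 12400000 to 22700000 fragments, and it may include scaling between libraries. FPKM hold no counts, so counting error enters only through the spread between libraries, and n was 3 per group.

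Genes with at least 1 FPKM in at least 3 libraries were tested, leaving out 28 genes listed at 0 in a library of a group where another library had at least 10 FPKM, which left 13243 genes. limma 3.58.1 in R 4.3.3 was fitted to log2(FPKM + 1) with the 4 groups in 1 model and a variance trend, and p-values were adjusted by Benjamini-Hochberg over all genes tested. Fold changes on this scale understate the change of low genes. The procedure was tested on simulated data. The labels number 3 libraries in each group and give CL and UUO kidneys the same numbers, but do not name the animals, so p-values measure the spread between these samples. The deviations of same-numbered kidneys from their group means correlated at 0.13 to 0.36 in Acot12+/+ and 0.19 to 0.32 in Acot12-/- mice. Those of differently numbered kidneys correlated at -0.36 to 0.14 and -0.18 to -0.07, so the ranges overlapped slightly in Acot12+/+ mice. The numbers were taken to pair the kidneys of a mouse, in a fit kept as an alternative. Other alternatives were a pseudocount of 0.1, no filter, other scalings, genes listed at 0 kept, no variance trend, only the groups compared, a fold change of at least 2, and leaving out each library.

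The members, their roles, the other pathway lists, the marker lists and the tests were chosen with earlier results of these data known. Library values are given for members called with obstruction at an absolute log2 change of at least 0.58, members called between genotypes and, of those with an unadjusted p under 0.05 there or in the interaction, at most 8. Those of Ctsd were added after its values were seen, since it weighs most in the cathepsin sum. Of each other pathway list, the 2 called genes of largest rise and the 2 of largest fall in Acot12+/+ mice are named, with Tfeb, Tfe3 and Mitf. Cst3 and Serpina3n were added after their values were seen. Positions, exon overlap and GC content come from GENCODE vM21 (GRCm38), promoters from RefSeq (GRCm38.p6).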

Additional observations from a re-analysis of the deposited data

How the results depend on the processing

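The counts below are of the 43 genes unless stated, and the cause of each shift was not tested. With equal totals per library, 26 were called higher and 3 lower with UUO in Acot12+/+ mice (56.1% and 7.91% of all genes). In Acot12-/- mice 15 were higher and 10 lower (45.9% and 11.7% of all genes), and between genotypes in CL kidneys 3 were higher (0.506% of all genes). Lamp1, Lipa and Tpp1 then changed by 0.23, 0.05 and 0.22 in Acot12+/+ mice and Hgsnat by 0.13 in Acot12-/- mice, each opposite in sign to the value above, and the other pathway lists held 43 higher and 7 lower in Acot12+/+ and 28 higher and 10 lower in Acot12-/- mice. With a fold change of at least 2 as a further condition, 3 were higher and 7 lower in Acot12+/+ UUO, 3 higher and 11 lower in Acot12-/- UUO, and 1 higher and 0 lower between genotypes in CL kidneys. The shares of all genes under that condition were not counted, so these numbers have no background beside them. With only the groups compared in the fit, 4 were higher and 16 lower in Acot12-/- UUO (20.7% and 19.6% of all genes), and 0 higher and 0 lower between genotypes in CL kidneys (1 of all genes). With no filter, 3 were higher there (0.695% of all genes). The Acot12 difference in UUO kidneys missed the threshold with a pseudocount of 0.1 (-2.38), no filter (-2.07), median-ratio scaling (-2.06), genes listed at 0 kept (-2.07) and only the groups compared (-2.07).

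Leaving out 1 library at a time gave 7 to 16 called higher in Acot12+/+ UUO (18.7% and 30.9% of all genes in those fits). Between genotypes in CL kidneys 0 to 20 were higher and 0 to 3 lower, and in the interaction 0 to 1 higher and 0 to 7 lower. The largest of these counts came without Acot12-/- CL replicate 2. In that fit the shares of all genes were 11.6% and 10.5% between genotypes in CL kidneys, and 3.88% and 2.92% in the interaction. The cathepsin median less that of glycosidases and sulfatases in Acot12-/- mice ran from 0.51 to 0.75 (the latter without Acot12-/- CL replicate 3), and the Acot12 difference in UUO kidneys from -2.35 to -1.84. With the replicate block, which pairs the kidneys of a mouse, 12 were higher and 14 lower in Acot12+/+ UUO (Galns gained), against 24.7% and 26.3% of all genes. In Acot12-/- UUO 7 were higher and 23 lower (Cd63 and Psap gained), against 27.3% and 28.9%. Between genotypes in CL kidneys 5 were higher and 1 lower, against 1.1% and 3.38%, and 0 were called in the interaction. The block ended the Acot12 call in UUO kidneys (-2.07) and raised the interaction's calls over all genes from 14 to 83, of which 0 were members. With 3 libraries per group and FPKM without counts, small differences were beyond reach.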
